A study of Mus musculus with 6 samples.

Results

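*Psmb8*, *Tap2*, *Tapbp*, and *Cd74*, 4 genes that prepare peptides for display on major histocompatibility complex (MHC) molecules, were followed in mouse adipose-derived stem cells (ADSCs) differentiated with or without NJT-2. They were picked by name from the 4864 genes analysed here, which are those of a copy of the table that ends within a line, so a listed gene outside them is not analysed here. All 4 passed the expression filter of a mean FPKM of at least 0.5, as did 3705 genes in all. The cells of both groups were wild type, came from subcutaneous fat, and received the same primary adipocyte differentiation. The vehicle group had 3 libraries without the compound and the NJT-2 group had 3 with it. NJT-2 is saikosaponin A, a plant terpenoid that the study examines as a ligand of PPARγ, the nuclear receptor that drives fat cell differentiation. According to the methods, the precursors came from male C57BL/6J white fat and were collected as mature adipocytes after a fixed number of days in an induction cocktail. The labels do not say whether the libraries of a group came from separate cultures or animals, so a p-value measures the spread between these libraries only.

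Cells display fragments of their own proteins on MHC class I. The immunoproteasome, in which β5i (*Psmb8*) takes the place of the constitutive β5 subunit (*Psmb5*), cuts proteins into peptides. The transporter TAP, built from *Tap1* and *Tap2*, carries them into the endoplasmic reticulum, and tapasin (*Tapbp*) holds TAP next to the waiting class I molecule. On the class II side, used mainly by macrophages, dendritic cells, and B cells, the invariant chain (*Cd74*) fills the groove until peptides from the endosome replace it. Interferon-γ raises both branches in many cell types.

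*Psmb8* (ENSMUSG00000024338) lies on the plus strand of chromosome 17 of GRCm38 from 34197721 to 34201454, and *Tap2* (ENSMUSG00000024339) lies 2072 bases further on, from 34203527 to 34216321. *Tapbp* (ENSMUSG00000024308) is on the same chromosome from 33915899 to 33926197. These are the deposited positions. GENCODE M21, on the same build, places other genes over each of them. *Gm20496* runs antisense across 2139 bases of *Psmb8* and 1923 bases of *Tap2*, and *Zbtb22* shares 3422 bases and the strand with *Tapbp*. On the opposite strand, *Gm15821* covers 3148 bases of *Tap2* and *Gm19412* covers 1207 bases of *Tapbp*. *Cd74*, placed below, shares 88 bases and the strand with *Mir5107*. The libraries were made with a kit that marks the strand, but whether the counting used it is not given in the sources used here, so reads of overlapping genes may have been added to the members.

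β5i and β5 are related proteins, and their genes were compared to see whether reads could pass between them. The coding bases that begin with the catalytic threonine, whose codon is in capitals, are shown from the GENCODE M21 transcripts. The *Psmb8* stretch is exon 2 at chr17:34199302-34199346 on the plus strand, and the *Psmb5* stretch joins chr14:54617794-54617814 in exon 1 to chr14:54616798-54616821 in exon 2 on the minus strand.
Psmb8: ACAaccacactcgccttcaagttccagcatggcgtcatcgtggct
Psmb5: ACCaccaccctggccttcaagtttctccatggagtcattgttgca
Of these 45 bases, 35 were identical. The longest run shared by the whole transcripts was 18 bases, which is short beside the paired reads of the study.

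The RefSeq start of *Psmb8*, at 34198195, lies inside the deposited gene. The 250 bases before it held 1 match to the gamma-activated site TTCNNNGAA, which is the sequence bound by STAT factors after an interferon signal, and this site is shown in capitals with 10 bases on each side.
Psmb8 site, chr17:34198088-34198116, plus strand, GRCm38.p6: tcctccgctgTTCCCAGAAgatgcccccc
Such a match was found in 7.02% of the 32851 promoter windows of the same length. The window had no match to the cores of the interferon-stimulated response element and of the NF-kB site, or the nuclear receptor half-site AGGTCA on either strand. It also lacked the NF-Y box CCAAT and the Sp1 box with the letters GGGCGG. The RefSeq start of *Tapbp*, at 33919478, also lies inside the deposited gene. The window before it held 2 matches to CCAAT, 1 to GGGCGG, and none to the other motifs. CCAAT occurred in 33.8% and GGGCGG in 32.7% of windows, AGGTCA in 14%, the NF-kB core in 17.6%, and the interferon-stimulated response element core in 2.98%. Both windows lie wholly within the deposited genes, so they need not be upstream of every transcript. A match is a stretch of letters and not a measured site.

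The analysed genes summed to between 16093037 and 28929673 counts per library, which is 27.7% to 32.5% of the totals implied by the FPKM values. A pair of libraries stood apart. Vehicle replicate 1 differed most from its group, with a chi-square of 965 and 1670 per gene against vehicle replicates 2 and 3, and NJT-2 replicate 2 differed from NJT-2 replicates 1 and 3 by 1230 and 1070, where these were 48.4 apart. The libraries also differed in how their log2 ratio to the mean library moved with transcript length (Spearman correlation across genes of -0.424 and -0.426 in vehicle replicates 1 and 2, and 0.177 to 0.398 in the others). With edgeR's quasi-likelihood test, a gene was called when its adjusted p was under 0.05 and its log2 fold change beyond 1 in either direction. Of the fat cell markers, *Adipoq* (adiponectin) was at 0.38 to 0.50 FPKM in the vehicle libraries and at 22 to 64.6 in the NJT-2 libraries, so the vehicle libraries hardly held this marker of the labelled differentiation. All 10 of the 16 listed adipocyte markers that were analysed lay above every vehicle library with NJT-2, as did 14.4% of tested genes. Of these 10, 6 were called higher, as were 0.567% of tested genes, namely *Adipoq*, *Cd36*, *Plin4*, *Lipe*, *Pnpla2*, and *Gpd1*. Of 10 listed progenitor markers, 3 were analysed here and tested, and 1 was called lower, as were 0.135% of tested genes. This was *Pi16* (log2 fold change -3.83, adjusted p = 0.027, edgeR). *Pdgfrb*, the highest of the 3 in level, averaged 71.8 FPKM with vehicle and 32.0 with NJT-2 (log2 fold change -1.35, adjusted p = 0.151, edgeR). *Cd34*, given so that the list is complete, overlapped between the groups (log2 fold change -0.42, adjusted p = 0.614, edgeR). In bulk RNA, fewer cells of a type and less RNA per cell cannot be told apart.

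None of the 4 genes was called by edgeR, as 0.702% of the 3705 tested genes were (0.135% lower and 0.567% higher). At an unadjusted p under 0.05 there was 1 member, *Psmb8*, whose estimate was lower, and 9.72% of tested genes were lower and 8.04% higher at that limit. DESeq2, which the methods of the study name for its comparison, called *Psmb8* and no other member. The labels name both DESeq2 and edgeR. It called 7.8% of tested genes, 3.4% lower and 4.4% higher. *Psmb8* was below every vehicle library in all 3 NJT-2 libraries, as were 11.5% of tested genes, and *Cd74* was above every vehicle library, as were 14.4%. *Tap2* and *Tapbp* overlapped between the groups. The members therefore did not share a pattern over these 6 libraries.

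**Figure D1:**
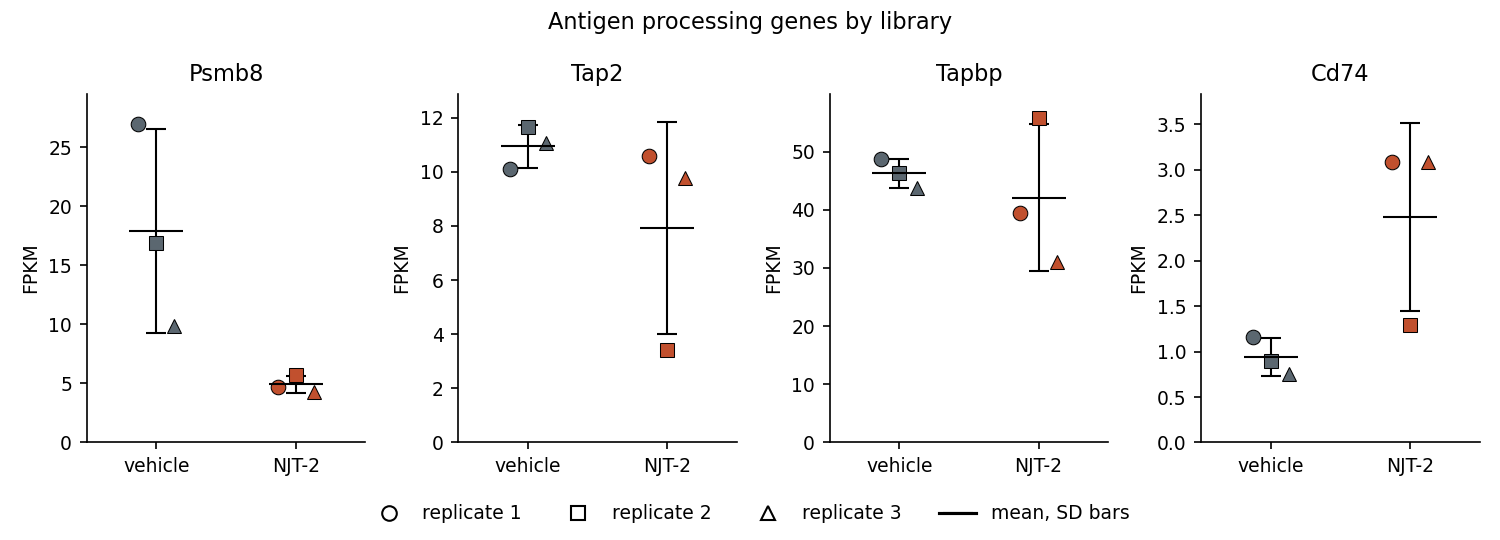
FPKM of *Psmb8*, *Tap2*, *Tapbp*, and *Cd74* (y axes from 0) in the vehicle and NJT-2 groups. Symbols are the 3 libraries of a group, the long dash is the mean, and bars are the SD. *Psmb8* is lower and *Cd74* higher in every NJT-2 library than in any vehicle library, while *Tap2* is low in NJT-2 replicate 2 only, at 3.41.

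*Psmb8* had an FPKM of 27.0, 16.9, and 9.83 in vehicle replicates 1, 2, and 3 and of 4.71, 5.75, and 4.30 in NJT-2 replicates 1, 2, and 3. The NJT-2 libraries lay close together, and the vehicle libraries spread over a 2.75-fold range. The vehicle counts behind these values were 5308, 5097, and 2375 and the NJT-2 counts 1131, 1365, and 1019, so counting error was small beside the spread. The mean was 17.9 ± 8.63 (SD, n = 3) with vehicle and 4.92 ± 0.747 (SD, n = 3) with NJT-2, a ratio of means of 3.64. In edgeR the log2 fold change was -2.18 with a standard error (SE) of 0.56 and an adjusted p of 0.142, and in DESeq2 it was -2.16 (SE 0.59, adjusted p = 0.0064). The level of *Psmb8* moved from the percentile of 77.1 among tested genes with vehicle to that of 39.4 with NJT-2. The adipocyte markers and *Pi16* given above moved over the same libraries, and their part in the difference was not tested.

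The call of *Psmb8* changed with the test and with the libraries used, and the direction did not. With all 18 alternatives the estimate stayed below 0, from -2.55 to -1.44. Its adjusted p ran from 1.64e-05 to 0.426, and it was 0.17 without vehicle replicate 1 alone and 0.153 without NJT-2 replicate 2 alone (edgeR). With vehicle replicate 1 and NJT-2 replicate 2 both left out, a choice added once the values were known, the estimate was -1.58 (adjusted p = 0.0236, edgeR) and *Psmb8* was called, along with 13.4% of the genes tested that way (6.29% lower). Voom with sample quality weights, also added after seeing the data, gave -1.90 (adjusted p = 1.64e-05), where 19.6% of genes were called (9.04% lower). With the trend with transcript length taken out of each library, another added setting, it was -1.72 (adjusted p = 0.128, edgeR).

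The spread of *Psmb8* among the vehicle libraries was shared by other core subunits. *Psma6*, *Psmb1*, *Psmb4*, and *Psmb6* also fell from vehicle replicate 1 to 3, while *Psma2* was highest in vehicle replicate 2. The constitutive counterpart of *Psmb8* fell in the same order. *Psmb5* was at 160.8, 107, and 60.3 FPKM in the vehicle libraries and at 112, 46.4, and 105 in the NJT-2 libraries, and these groups overlapped (log2 fold change -0.66, SE 0.57, adjusted p = 0.515, edgeR). The share of *Psmb8* in the summed FPKM of *Psmb8* and *Psmb5*, a level per length, was 14.4%, 13.6%, and 14% in vehicle replicates 1, 2, and 3. In the NJT-2 libraries, in the same order, it came to 4.03%, 11%, and 3.95%. The vehicle libraries thus gave nearly the same share, and each NJT-2 library lay below them, with NJT-2 replicate 2 the nearest. The mean share was 14% ± 0.372 with vehicle and 6.33% ± 4.06 with NJT-2 (n = 3 each, SD), a difference of -7.68 percentage points (two-sided exact permutation test over 20 assignments, p = 0.1, the smallest that 3 libraries against 3 allow). Taken over counts, which are not per length, the share was 38.0% ± 0.725 with vehicle and 19.6% ± 10.6 with NJT-2 (n = 3 each, SD), a difference of -18.4 points with the same p in the exact permutation test. Set against the geometric mean of the 6 core particle subunits analysed here, a measure added after seeing the data, *Psmb8* was at 29.6%, 27.0%, and 27.0% with vehicle and at 8.76%, 19.2%, and 8.43% with NJT-2.

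**Figure D2:**
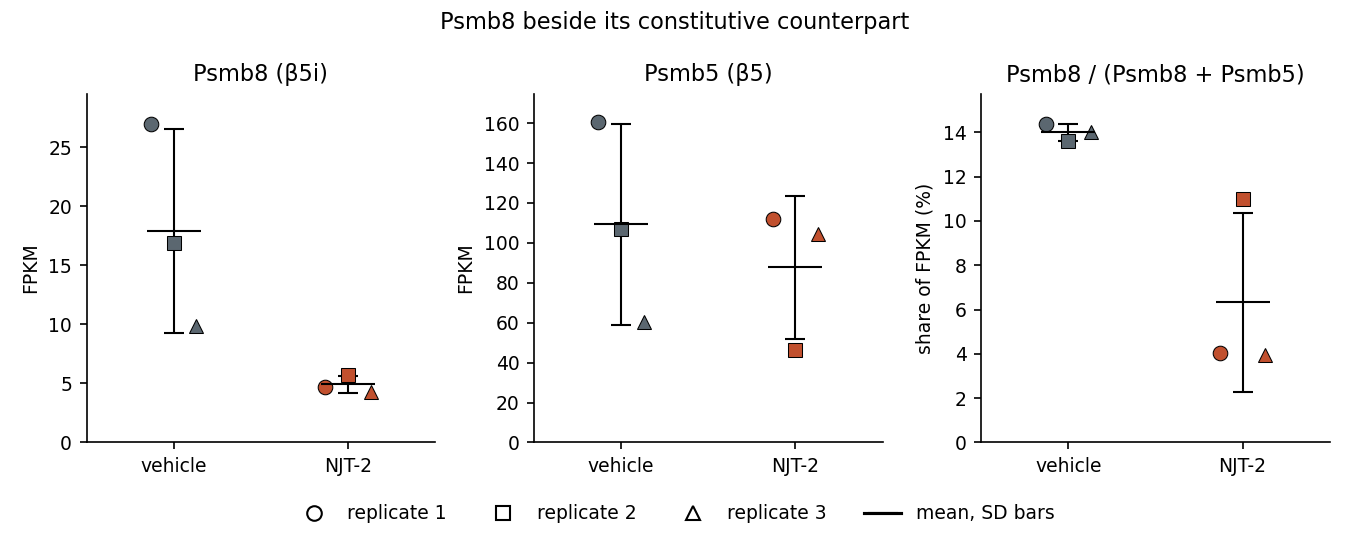
FPKM of *Psmb8* and of *Psmb5*, and the share of *Psmb8* in their sum in percent (y axes from 0), by group. Symbols are libraries, the long dash is the mean, and bars are the SD. The vehicle libraries spread in both genes and meet at shares of 13.6% to 14.4%, and the NJT-2 libraries lie at 3.95% to 11%.

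Relative to *Psmb5*, the constitutive subunits *Psma2*, *Psma6*, *Psmb1*, *Psmb4*, and *Psmb6* each overlapped between the groups. The ratio of *Psme1*, which encodes a subunit of the PA28 cap that opens the proteasome, to *Psmb5* was 0.372, 0.259, and 0.314 with vehicle and 0.184, 0.227, and 0.153 with NJT-2. This ratio was chosen after its values were seen and has no test. Of the 17 constitutive proteasome genes analysed here, of 35 listed, none was called in edgeR and none in DESeq2. An estimate below 0 was found for 13 of them, and for 1822 of the 3705 tested genes. At an unadjusted p under 0.05 none of the 17 was lower and 1 was higher, and 9.72% of tested genes were lower and 8.04% higher. The 1 higher gene was *Psmc6*, an ATPase subunit of the proteasome (log2 fold change 0.87, adjusted p = 0.252, edgeR). It is named for that count after its values were seen. The median log2 fold change of the 17 was -0.66, where that of all tested genes was 0.02. The highest in level were *Psma6*, a subunit of the outer ring of the core (log2 fold change -1.16, adjusted p = 0.339, edgeR), and *Psmb5*. Their summed FPKM ran from 587 to 1260 with vehicle and from 508 to 846 with NJT-2.

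*Tap2*, one of the TAP subunits, had an FPKM of 10.1, 11.7, and 11.1 in vehicle replicates 1, 2, and 3 and of 10.6, 3.41, and 9.76 in NJT-2 replicates 1, 2, and 3. NJT-2 replicates 1 and 3 were at or close to the vehicle level, and NJT-2 replicate 2 was low alone, with 907 counts where the other libraries had 2218 to 3927. The mean was 10.9 ± 0.783 with vehicle and 7.92 ± 3.93 with NJT-2 (n = 3 each, SD). The log2 fold change of -0.68 (SE 0.44, adjusted p = 0.394, edgeR) was within the spread between libraries. It was -0.35 without NJT-2 replicate 2 and -0.17 with vehicle replicate 1 left out as well. Although *Tap2* follows *Psmb8* on the chromosome, the FPKM ratio of *Psmb8* to *Tap2* was 2.67, 1.45, and 0.888 with vehicle and 0.444, 1.69, and 0.441 with NJT-2. This ratio was not constant within either group.

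*Tapbp*, the gene of tapasin, had the highest level of the 4, an FPKM of 48.7, 46.3, and 43.8 with vehicle and of 39.5, 55.8, and 30.9 with NJT-2. The vehicle libraries lay within a 1.11-fold range, and the NJT-2 libraries lay on both sides of it. The mean was 46.3 ± 2.46 with vehicle and 42.1 ± 12.6 with NJT-2 (n = 3 each, SD), at the percentiles of 91.3 and 89.6 among tested genes. Its log2 fold change was -0.35 (SE 0.40, adjusted p = 0.623, edgeR). It was -0.08 without vehicle replicate 1 and -0.67 without NJT-2 replicate 2, and the reads of *Zbtb22* may be part of its level. Voom with quality weights gave -0.47 (adjusted p = 0.0384), which is under the fold limit. A p that misses the limit does not show that *Tap2* and *Tapbp* were equal between the groups.

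Of the 28 genes listed for the class I branch, 8 were analysed here, and all 8 were tested. None was called in edgeR, where the smallest adjusted p was 0.142. DESeq2 called 1, which was *Psmb8*, and it called 3.4% of tested genes lower. At an unadjusted p under 0.05, *Psmb8* and *Psme1* were lower, as were 9.72% of tested genes. Of the 8 estimates, 7 were below 0, with a median of -0.38. Of all 3705 tested genes, 1822 had an estimate below 0, and the median was 0.02. *Psme1* had a log2 fold change of -1.55 (SE 0.62, adjusted p = 0.268, edgeR). The chaperones of the endoplasmic reticulum were the highest in level. *Calr* (calreticulin) averaged 400.0 ± 43.9 FPKM in the vehicle group and 340.0 ± 42.6 in the NJT-2 group, and *Canx* (calnexin) had 88.4 ± 14.5 and 94.5 ± 16.5 (n = 3 each, SD). *Erap1*, which trims peptides, had a log2 fold change of 0.08, and *H2-M3*, a nonclassical class I molecule, had one of -0.20. The classical class I genes, *B2m*, *Tap1*, *Psmb9*, and *Nlrc5* were not analysed here.

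**Figure D3:**
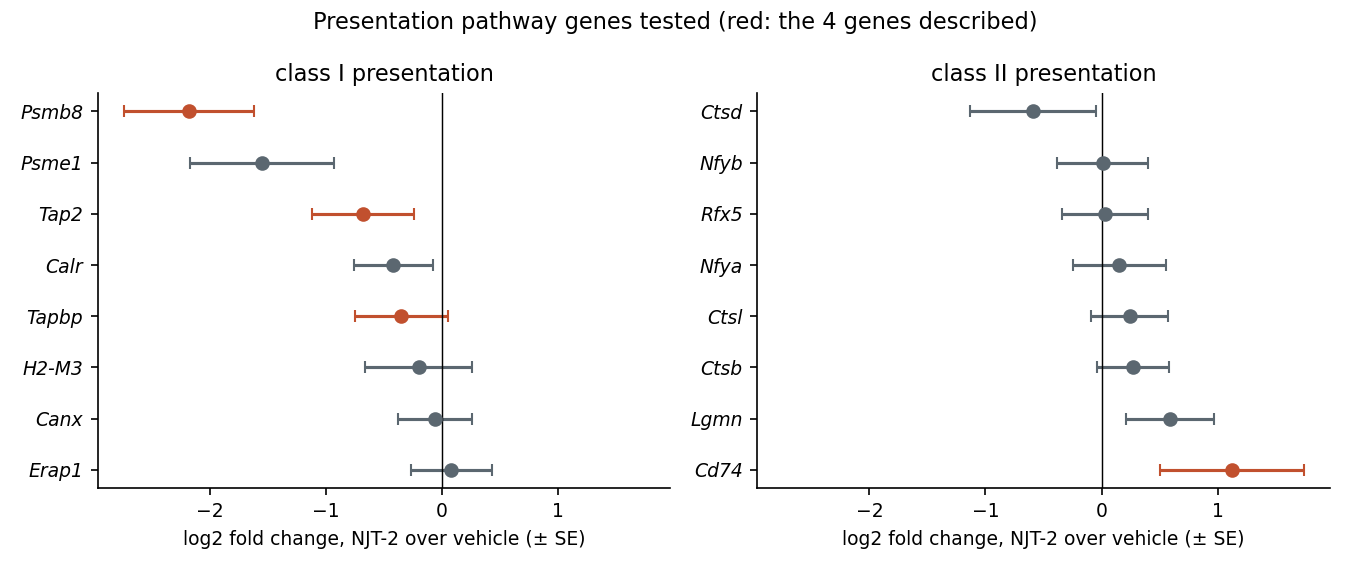
Log2 fold change of NJT-2 over vehicle (x axis, points, with standard error bars, edgeR) for the 8 class I and the 8 tested class II presentation genes, with the 4 described genes in red. *Psmb8* at -2.18 and *Cd74* at 1.12 lie at opposite ends, and no gene of either list was called.

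*Cd74* (ENSMUSG00000024610), the invariant chain, lies on the plus strand of chromosome 18 of GRCm38 from 60803848 to 60812646. It was the lowest of the 4 genes in level, with an FPKM of 1.16, 0.90, and 0.75 in vehicle replicates 1, 2, and 3 and of 3.08, 1.29, and 3.08 in NJT-2 replicates 1, 2, and 3. It rested on 113, 136, and 93 counts with vehicle and on 369, 154, and 364 with NJT-2. NJT-2 replicate 2 lay just above vehicle replicate 1, and the other NJT-2 libraries were well above it. The mean was 0.937 ± 0.207 with vehicle and 2.48 ± 1.03 with NJT-2 (n = 3 each, SD), a ratio of means of 2.65. The log2 fold change of 1.12 (SE 0.62) had an adjusted p of 0.343 in edgeR, and of 0.292 in DESeq2. It stayed above 0 over the 18 alternatives, from 0.80 to 1.87, with adjusted p-values from 0.000547 to 0.602. With vehicle replicate 1 and NJT-2 replicate 2 both left out it was 1.87 (adjusted p = 0.0231, edgeR), and with voom and quality weights 1.74 (adjusted p = 0.000547), and both called *Cd74* higher, as they did 7.15% and 10.6% of genes.

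Macrophage markers were also at a higher summed level with NJT-2. Of 22 such markers, 8 were analysed here and 5 were tested, and their 8 levels summed to an FPKM of 10.7 to 13.4 with vehicle and of 32.4 to 63.1 with NJT-2. *Adgre1* and *Cd68* made up most of this sum in each library. *Adgre1*, which encodes the macrophage antigen F4/80, rose from 1.60 ± 0.653 to 16.5 ± 8.44 (n = 3 each, SD; log2 fold change 3.23, adjusted p = 0.0408, edgeR). It was the only marker of the 5 called by edgeR, which called 0.567% of tested genes higher. *Cd68*, a lysosomal marker of macrophages, had 5.95 ± 1.21 and 23.5 ± 5.49 (n = 3 each, SD), with an adjusted p of 0.082 in edgeR. The rest of the tested markers, given so that the list is complete, were *Spi1*, *Fcgr1*, and *Csf1r*. *Spi1* had a log2 fold change of 2.57 (adjusted p = 0.218, edgeR) and *Fcgr1* one of 3.63 (adjusted p = 0.248, edgeR). Of the markers not tested, *Trem2* averaged 0.437 FPKM with vehicle and 0.337 with NJT-2, and *Aif1* 0.1 and 0.367. *Csf1r*, the receptor of the macrophage growth factor, had a log2 fold change of 0.03, and *Cd163* was at an FPKM under 0.1 in all 6 libraries. The ratio of *Cd74* to *Adgre1* was 0.349 to 1.32 with vehicle and 0.134 to 0.185 with NJT-2, lower in each NJT-2 library than in any vehicle library. The ratio of *Cd74* to *Cd68* was 0.123 to 0.227 with vehicle and 0.0656 to 0.146 with NJT-2, and these ranges overlapped. That of *Cd74* to *Spi1* was 3.1 to 6.25 with vehicle and 0.919 to 2.35 with NJT-2, without overlap. Of the dendritic, B, and T cell markers, 5 of 18 were analysed here, none of them above an FPKM of 0.43, and *Ms4a1*, *Cd3g*, and *Nkg7* were listed at 0 in all vehicle libraries. The highest were *Cd79a*, a B cell receptor chain with vehicle counts of 0, 3, and 2 and NJT-2 counts of 45, 12, and 39, and *Cd4*. The endothelial markers analysed here, *Pecam1*, *Tek*, and *Vwf*, summed to 0.45 to 2.18 with vehicle and 1.34 to 2.46 with NJT-2. Whether cells of these types were present, and what part they had in the level of *Cd74*, was not tested.

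**Figure D4:**
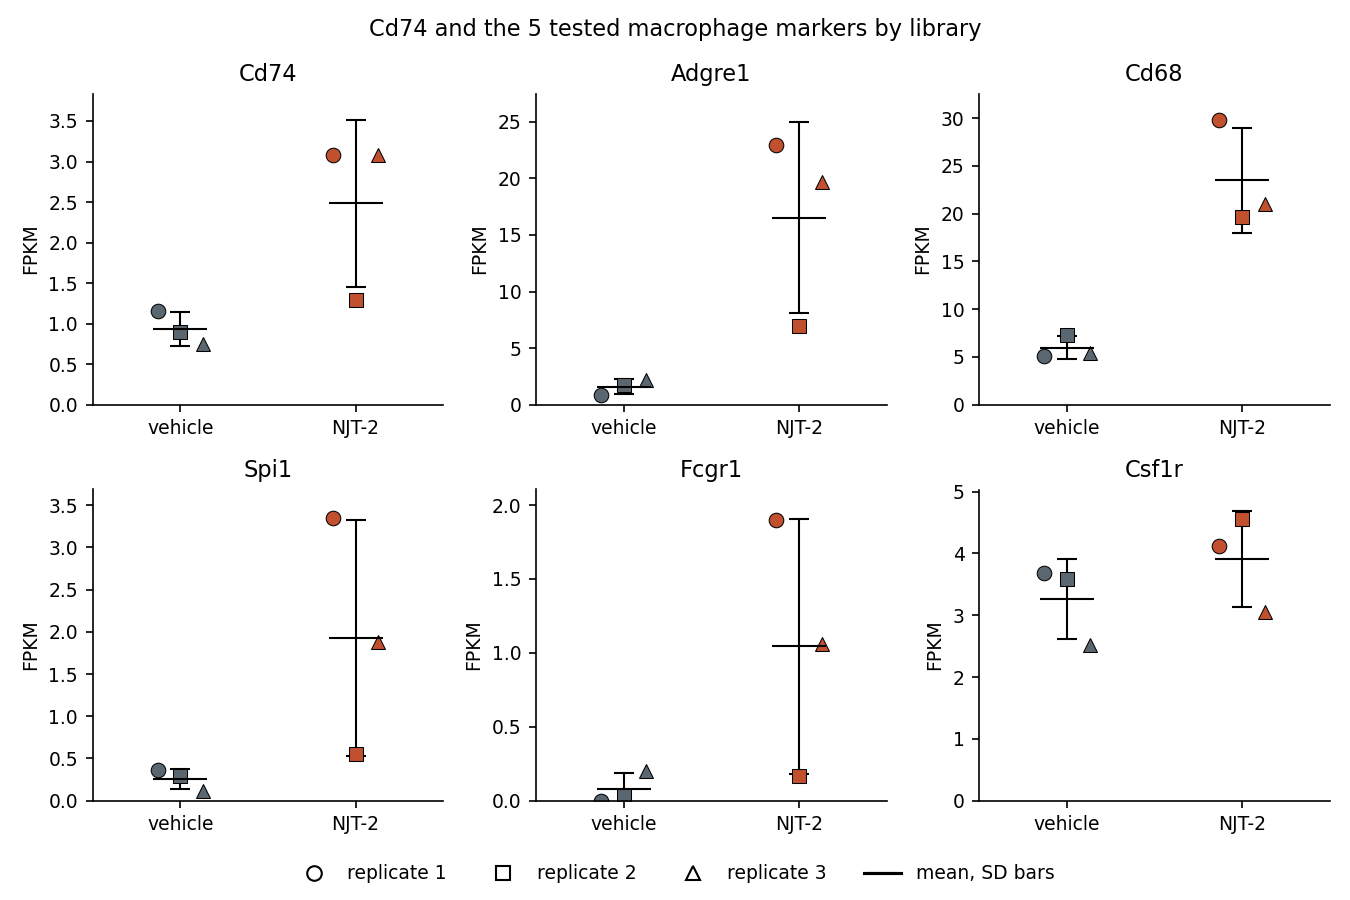
FPKM of *Cd74* and of the 5 tested macrophage markers (y axes from 0) by group. Symbols are libraries, the long dash is the mean, and bars are the SD, cut off at 0. *Adgre1*, *Cd68*, and *Spi1* lie above every vehicle library with NJT-2, as *Cd74* and 14.4% of tested genes do, and *Fcgr1* and *Csf1r* overlap.

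The other 7 tested genes of the class II branch had smaller estimates than *Cd74*. Of the 27 listed genes of the class II branch, 12 were analysed here, of which 8 were tested and none was called in edgeR or in DESeq2. None had an unadjusted p under 0.05, and the median log2 fold change was 0.20. *Ciita*, the master regulator of class II transcription, had vehicle counts of 0, 0, and 3 and NJT-2 counts of 13, 8, and 27. *H2-Oa*, which tunes peptide loading, had no reads in any vehicle library and 0, 4, and 8 in the NJT-2 libraries. Both were far under the expression filter. Also under it were the costimulators *Cd86* and *Cd40*, whose vehicle counts were 7 to 36 and 60 to 211 and whose NJT-2 counts were 22 to 28 and 12 to 130. The regulators *Rfx5*, *Nfya*, and *Nfyb*, which act on class II promoters, had log2 fold changes of 0.03, 0.15, and 0.01. Of the endosomal proteases, *Lgmn* (legumain) lay above every vehicle library with NJT-2, as did 14.4% of tested genes. Its mean FPKM was 86.5 ± 9.81 with NJT-2 against 54.9 ± 29.3 with vehicle (n = 3 each, SD; log2 fold change 0.59, adjusted p = 0.39, edgeR). The cathepsin genes *Ctsl*, *Ctsb*, and *Ctsd* had log2 fold changes of 0.24, 0.27, and -0.59, each with an SE of at least 0.31. The class II chains themselves were not analysed here.

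In the annotation deposited with the table, 25 analysed genes belong to the KEGG pathway of antigen processing and presentation. Of these, 18 were tested and none was called. Their median log2 fold change was 0.02, the same as that of all tested genes, and 10 were above 0 and 8 below. *Psmb8* is not in that pathway but in the KEGG proteasome set, where none of 19 tested genes was called and the median was -0.82. DESeq2 called 1 of the 19, which was *Psmb8*, and it called 3.4% of tested genes lower.

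The interferon pathway, which is known to regulate these genes, was set beside them. Of 24 signaling genes listed, 12 were analysed here and tested. Of these, none was called in edgeR and 2 were called lower in DESeq2, which called 3.4% of tested genes lower. At an unadjusted p under 0.05, 3 were lower and none higher, where 9.72% of tested genes were lower and 8.04% higher. The median log2 fold change of the 12 was -0.32, with 8 estimates below 0 and 4 above. Of all 3705 tested genes, 1822 had an estimate below 0, and the median was 0.02. The interferon-γ receptor chains *Ifngr1* and *Ifngr2*, given so that both directions are seen, had 0.64 and -0.97 (adjusted p = 0.328 and 0.169, edgeR). *Irf7*, a transcription factor induced by interferon, was at 87.9 ± 17.5 FPKM in the vehicle group and at 21.8 ± 4.42 in the NJT-2 group (n = 3 each, SD; log2 fold change -2.20, adjusted p = 0.0508, edgeR), and *Ifnar2*, a receptor chain, had a log2 fold change of -1.23 (adjusted p = 0.175, edgeR). Of 38 interferon-stimulated genes listed, 8 were analysed here and tested, and none was called in edgeR. DESeq2 called 4 of the 8 lower, as it did 3.4% of tested genes, and 6 were lower at an unadjusted p under 0.05, as were 9.72% of tested genes. Their median log2 fold change was -1.61, and 5 of the 8 lay below every vehicle library, as did 11.5% of tested genes. The highest in level were *Ifi35* (log2 fold change -2.21, adjusted p = 0.184, edgeR) and *Trim25* (-0.64, adjusted p = 0.299, edgeR).

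As a description of pattern, the Pearson correlation of log2 CPM was taken over the 6 libraries, which share depth and composition. *Psmb8* was most like *Phax* (0.993), *Cyb5r3* (0.992), and *S100a6* (0.991), and 332 tested genes were above 0.9 with it. *Tap2* was most like *Gart* and *Nfib* (0.996 each) and *Araf* (0.994), *Tapbp* like *Fkbp1b* (0.993), *Llgl2* (0.98), and *Rasa4* (0.972), and *Cd74* like *Aifm2* (0.997), *Qdpr* (0.984), and *Supv3l1* (0.983). Among the members, the correlation was 0.757 for *Psmb8* and *Tapbp*, 0.55 for *Psmb8* and *Tap2*, -0.034 for *Tap2* and *Tapbp*, and -0.415 for *Psmb8* and *Cd74*. Many genes lay this close, so the order of these lists holds for these libraries only.

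**Figure D5:**
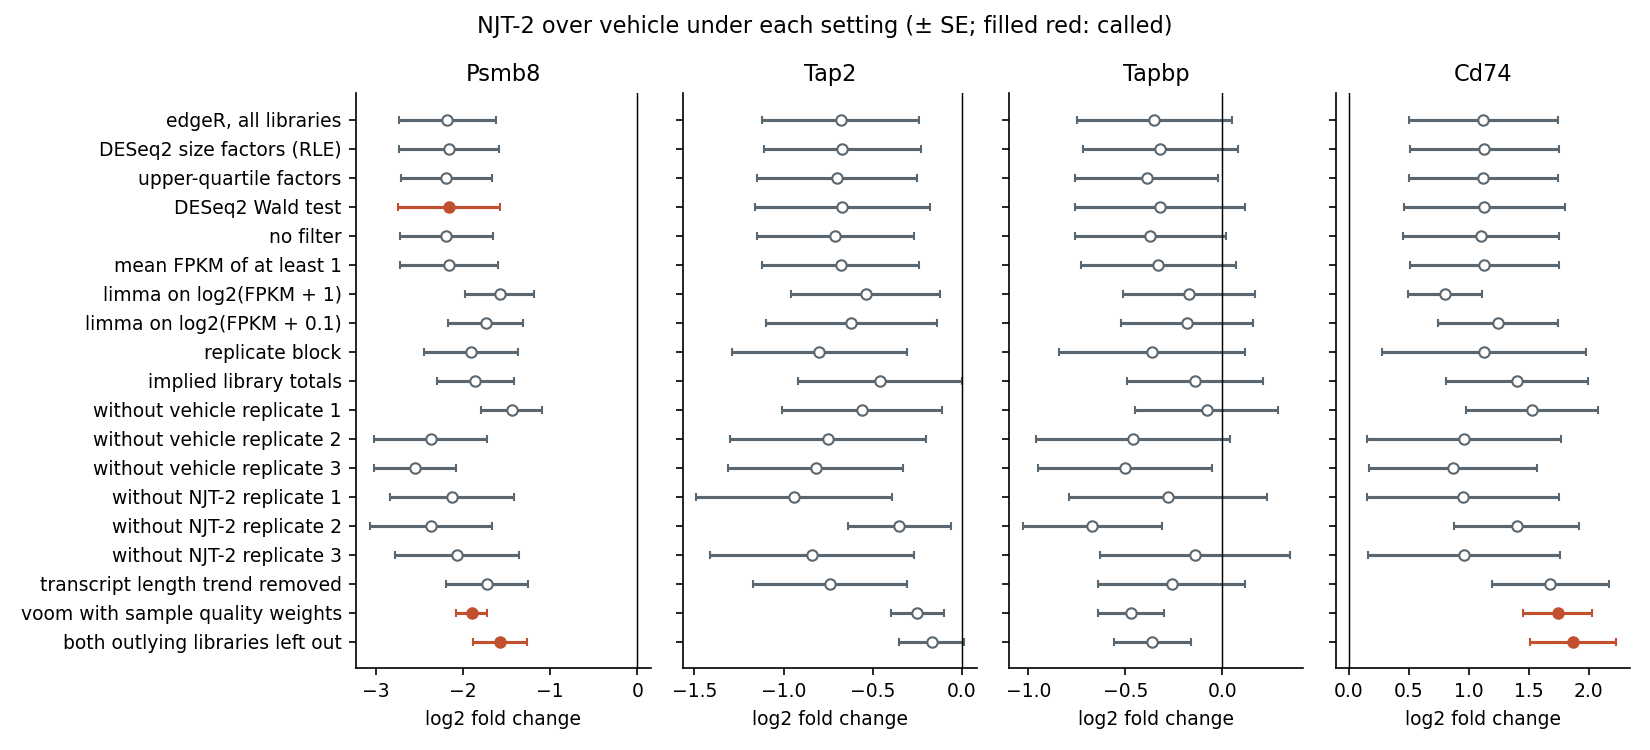
Log2 fold change of NJT-2 over vehicle (x axes, with standard error bars) of each of the 4 genes under edgeR with all libraries and 18 alternatives (y axis). Filled red points are called. *Psmb8* stays between -2.55 and -1.44 and is called in 3 alternatives, *Cd74* stays between 0.80 and 1.87 and is called in 2, and *Tap2* and *Tapbp* are called in none.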

How the data were processed

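The 3 vehicle and 3 NJT-2 RNA libraries were sequenced with paired-end reads. Per the labels, reads were trimmed with cutadapt 1.9 and aligned to GRCm38 with HISAT2 2.2.1. StringTie 2.1.6, and DESeq2 and edgeR without a version, are also named. How reads were counted, with which annotation, and whether by strand is not given in the sources used here. The authors deposited raw read counts and FPKM values per gene (the count divided by gene length and library total), and the 4864 complete lines of the copy used here, which ends within a line, were analysed. Counts were tested in R 4.3.3 with edgeR 4.0.16 (quasi-likelihood test, TMM factors, Benjamini-Hochberg adjustment) over the 3705 genes whose mean FPKM reached 0.5. Alternatives used DESeq2 1.42.0 and limma 3.58.1 on log2(FPKM + 1) and log2(FPKM + 0.1), other factors and filters, a replicate block, implied library totals, and leaving out each library. The length trend, voom weights, the removal of 2 libraries, and the ratio to 6 core subunits were added after seeing the data. Log2 CPM used a prior count of 2. On simulated counts for this comparison, where 200 of 3705 genes were shifted by 3 on the log2 scale, 191 were recovered with 4 false calls. These counts gave all genes the same relative spread between libraries and held no outlying library. The shift was also larger than the estimate of any member, so the recovery does not tell how sensitive the test was for the members. Lists were counted and given a median, with no set test. Named genes are the 4 members, all listed presentation genes in the table, from other lists the called genes and the 2 highest in FPKM, and the 3 best correlated genes per member, and others are said to be chosen or given otherwise. The members and lists were chosen with earlier results of these data known. Promoter windows came from RefSeq on GRCm38.p6, where 2 of the 3 members looked for matched (*Psmb8* and *Tapbp*).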

Additional observations from a re-analysis of the deposited data

How the results depend on the processing

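Over 18 alternatives, *Psmb8*, *Tap2*, and *Tapbp* stayed below 0 and *Cd74* above 0. Of the 4 members, 0 were called in edgeR, 1 in DESeq2 (*Psmb8*, the only class I gene it called), and 2 each with voom weights and with both outlying libraries left out, where 1 class I and 1 class II gene were called. In the fits without a replicate, 0 members, 0 class I and 0 class II genes were called. Over the whole table, 21 genes were called higher and 5 lower in edgeR. The number lower was 9 with upper-quartile factors and with no filter, 8 at a mean FPKM of at least 1, and 10 with limma at either pseudocount. DESeq2 called 163 higher and 126 lower, voom 392 and 335, and edgeR without both outlying libraries 264 and 232. Leaving out 1 library gave 0 to 59 higher and 0 to 21 lower, with the most without NJT-2 replicate 2. Without vehicle replicate 2 none was called. The difference in the *Psmb8* share ran from -10.0 to -6.48 points when a library was left out. Each such fit had p = 0.2 (exact permutation), the smallest that the remaining libraries allow. The difference was -18.4 points on counts. The cause of these changes was not tested. The replicate numbers were not taken as pairs, as the deviations of equal numbers correlated at 0.179, 0.0325, and -0.207 and 3 of 6 libraries were closest to their own number. With the replicate block, 43 genes were called higher and 14 lower, no member was called, and the adjusted p of *Psmb8* was 0.0976 (edgeR).
*Ciita* and *H2-Oa* rested on 27 counts or fewer per library. *Cd74* had 93 to 369 counts.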
